A study of Mus musculus with 48 samples.

Results

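The 8 genes described here make, package, recover or break down the inhibitory transmitter GABA, or encode the calcium-binding proteins by which classes of cortical interneurons are told apart. They are Gad1, Gad2, Slc32a1, Slc6a11, Abat, Pvalb, Calb1 and Calb2. They were taken by symbol from the deposited expression table, which held each of them in all 48 samples among 24444 genes. The samples were RNA from the dissected cerebral cortex, one hemisphere of each, of male C57BL/6J mice, with 6 WT and 6 heterozygous mice in each of 4 age groups, the embryonic age E14.5 and the ages of 1, 6 and 12 months. Littermates served as controls. The heterozygous mice (Chd8 V986*/+) carry a stop codon at V986 in 1 copy of Chd8, which encodes a chromatin remodeling protein, in all cells, and the allele was made by CRISPR/Cas9 in C57BL/6J blastocysts and goes back to 1 male founder. Different mice were taken at each age, and litters were not given in the labels.

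GABA is made from glutamate by the glutamate decarboxylases GAD67 and GAD65, the products of Gad1 and Gad2, and the vesicular transporter VGAT, the product of Slc32a1, loads it into synaptic vesicles. After release it is cleared by plasma membrane transporters, of which GAT-3, the product of Slc6a11, is found mainly on astrocytes, and it is degraded by GABA transaminase, the product of Abat. Cortical interneurons are born in the ganglionic eminences of the ventral forebrain and migrate into the cortex, where they mature over the first weeks after birth. Parvalbumin (Pvalb) appears late in fast-spiking interneurons, whereas calbindin (Calb1) and calretinin (Calb2) mark other interneuron classes and are also found in other neurons of the forebrain.

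Values are variance-stabilizing transformation (VST) normalized expression, on a log2 scale that does not account for gene length, so levels were not compared between genes. The value 2.1433, which occurs more often than any other, was treated as the floor of this scale. It is not the lowest value, as values go down to 1.2295. Pvalb in heterozygous E14.5 replicate 6 (2.11) lay below it and was used as it stands. The table holds no read counts, so the precision of a value rests on the spread between 6 mice. Chd8 was lower in the heterozygous mice at each age, by 0.54 to 0.67 on the log2 scale, with no overlap between the genotypes. None of the 6 general neuronal or 12 excitatory cortical neuron markers lay near the floor in any group. Of 35 midbrain, hindbrain and spinal cord markers, 2 in WT and 13 in heterozygous cortex lay within 0.5 of the floor at E14.5, and 16 to 22 did so in the groups from 1 month on. RNA from whole tissue cannot tell apart fewer cells of a type and less RNA per cell.

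In the mm9 genome, Gad1 (ENSMUSG00000070880.4), Gad2 (ENSMUSG00000026787.3) and Slc32a1 (ENSMUSG00000037771.10) all lie on the plus strand of chromosome 2, at chr2:70391129-70440071, chr2:22477725-22549394 and chr2:158436494-158441484. Slc6a11 (ENSMUSG00000030307.7) lies at chr6:114081235-114199880 and Abat (ENSMUSG00000057880.6) at chr16:8513522-8621661, both on the plus strand. Calb1 (ENSMUSG00000028222.2) lies at chr4:15808411-15835211 on the plus strand, and Pvalb (ENSMUSG00000005716.10) at chr15:78021544-78036830 and Calb2 (ENSMUSG00000003657.7) at chr8:112661402-112692110 on the minus strand. Exons of Slc32a1 share 697 bases with exons of Gm14205 and exons of Abat share 2315 bases with exons of Gm9851, each on the opposite strand. Neither Gm14205 nor Gm9851 is in the table. Whether the counting used strand was not given in the sources used here, so the reads of these partners cannot be told apart from those of Slc32a1 and Abat.

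The 250 bases before the start site are shown for 3 genes that behaved differently below. Pvalb rose most with age, Slc6a11 rose second most in WT cortex, and Slc32a1 moved between mice with Gad2 and against Pvalb. The sequences are from RefSeq (GRCm38.p6), are written 5′ to 3′ on the strand of the gene, and each matched mm9 exactly and at 1 place. Capitals mark a GC box (GGGCGG on either strand).
Pvalb, chr15:78036831-78037080, minus strand, first of 2 starts: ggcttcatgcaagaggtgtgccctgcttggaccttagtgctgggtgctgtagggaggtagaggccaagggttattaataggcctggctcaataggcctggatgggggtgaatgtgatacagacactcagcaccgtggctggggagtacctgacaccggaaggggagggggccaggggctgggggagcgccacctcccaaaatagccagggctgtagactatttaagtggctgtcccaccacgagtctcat
Slc6a11, chr6:114080985-114081234, plus strand: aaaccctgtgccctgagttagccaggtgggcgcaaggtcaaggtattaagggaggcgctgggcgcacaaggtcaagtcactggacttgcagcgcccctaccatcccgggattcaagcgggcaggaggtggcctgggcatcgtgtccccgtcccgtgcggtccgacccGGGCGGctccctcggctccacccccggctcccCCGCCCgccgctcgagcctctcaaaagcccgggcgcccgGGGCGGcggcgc
Slc32a1, chr2:158436244-158436493, plus strand: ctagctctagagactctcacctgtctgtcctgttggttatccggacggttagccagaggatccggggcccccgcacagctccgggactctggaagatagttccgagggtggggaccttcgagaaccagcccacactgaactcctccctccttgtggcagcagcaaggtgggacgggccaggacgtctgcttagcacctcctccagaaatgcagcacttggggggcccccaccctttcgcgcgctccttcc
The Slc6a11 window held 3 GC boxes and those of Pvalb and Slc32a1 held none, where 33.0% of 32536 promoter windows of the same length held at least 1. No TATA box (TATAAA, in 12.3% of all windows) and no homeodomain core (TAATTA, in 4.84%) was found in these 3 windows on either strand. An E-box (CANNTG, in 66.2%) was found 2 times in the Slc32a1 window, 1 time in that of Slc6a11 and not in that of Pvalb. In mm9, 196 bases of the Slc32a1 window lie in exons of Gm14204, and those of Pvalb and Slc6a11 overlap no exon. The GC content was 58.4% for Pvalb, 62.4% for Slc32a1 and 71.2% for Slc6a11.

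From E14.5 to 1 month, the expression of 7 of the 8 genes increased in WT cortex and Calb2 decreased. With limma and a Benjamini-Hochberg adjusted p below 0.1 as the threshold, 43.4% of the 17285 genes tested in WT rose over this step and 42.3% fell. In heterozygous cortex the same 7 genes increased, beside 43.7% of 17227 genes that rose and 42.4% that fell, and Calb2 was not called. The median of the 8 differences was 2.04 in WT and 2.16 in heterozygous cortex, where the medians over all genes tested were 0.02 in both.

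Among the synthesis genes, Gad1 in WT ranged from 10.30 to 11.07 at E14.5 (median 10.93) and from 12.94 to 13.19 at 1 month (median 13.05). It rose by 2.23 (SE 0.10, adjusted p = 7.1e-12), and no mouse of the older age overlapped with the younger. In heterozygous cortex Gad1 rose by 2.38 (SE 0.11, adjusted p = 3.8e-12). Gad2 in WT ranged from 11.42 to 11.87 at E14.5 (median 11.70) and from 12.39 to 12.85 at 1 month (median 12.47), again without overlap. Its rise was 0.86 in WT (SE 0.08, adjusted p = 9.8e-08) and 0.90 in heterozygous cortex (SE 0.07, adjusted p = 5e-09). The interval of the Gad1 rise in WT (2.01 to 2.45) lay above that of Gad2 (0.68 to 1.04), although the difference between both rises was not tested.

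For vesicle loading, uptake and breakdown, Slc32a1 in WT ranged from 10.26 to 10.62 at E14.5 (median 10.38) and from 11.12 to 11.62 at 1 month (median 11.37). It increased by 0.95 in WT (SE 0.08, adjusted p = 2.9e-08) and by 1.03 in heterozygous cortex (SE 0.06, adjusted p = 1.5e-10). The uptake gene Slc6a11 went from 8.35 to 9.67 at E14.5 (median 9.25) to 12.08 to 12.57 at 1 month (median 12.28), with wide spread in the embryos and little at 1 month. It increased by 3.10 in WT (SE 0.17, adjusted p = 5.7e-11) and by 3.28 in heterozygous cortex (SE 0.13, adjusted p = 3.3e-13). Abat went from 11.18 to 11.56 (median 11.43) to 13.17 to 13.46 (median 13.21), an increase of 1.86 in WT (SE 0.07, adjusted p = 1.3e-12) and of 1.93 in heterozygous cortex (SE 0.04, adjusted p = 6.1e-16). In both genotypes the ages did not overlap for these 3 genes. The share of all genes without such overlap was not counted, for these genes as for Gad1 and Gad2. As 43.4% of all genes rose and 42.3% fell in WT over this step, it is not a trait particular to them.

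The calcium-binding genes had separate courses. Pvalb in WT embryos ranged from 2.92 to 5.35 (median 3.93), not far above the floor, and from 9.58 to 9.96 at 1 month (median 9.75). It increased by 5.88 in WT (SE 0.31, adjusted p = 4.4e-11) and by 6.78 in heterozygous cortex (SE 0.20, adjusted p = 1.2e-14), the largest increase of the 8 genes in each genotype. Calb1 went from 8.71 to 9.20 (median 9.03) to 11.85 to 12.04 (median 11.94), an increase of 2.95 in WT (SE 0.07, adjusted p = 3.7e-15) and of 2.92 in heterozygous cortex (SE 0.08, adjusted p = 3.2e-15). Calb2 in WT ranged from 9.13 to 9.48 at E14.5 (median 9.25) and from 8.58 to 9.59 at 1 month (median 8.86), so the ages overlapped. It fell by 0.31 (SE 0.13, adjusted p = 0.041), a call that was lost without WT 1 month replicate 2 (adjusted p = 0.10) and in one fit of all 48 samples (adjusted p = 0.34). The variance of that fit includes groups outside this comparison in which Calb2 spread more. Its SD was 0.13 and 0.36 in WT at E14.5 and 1 month, and 0.91 in heterozygous cortex at 12 months. In heterozygous cortex the Calb2 difference was −0.27 (SE 0.23, adjusted p = 0.29), and it passed the threshold without 1 month replicate 6 (−0.42, adjusted p = 0.086).

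**Figure D1:**
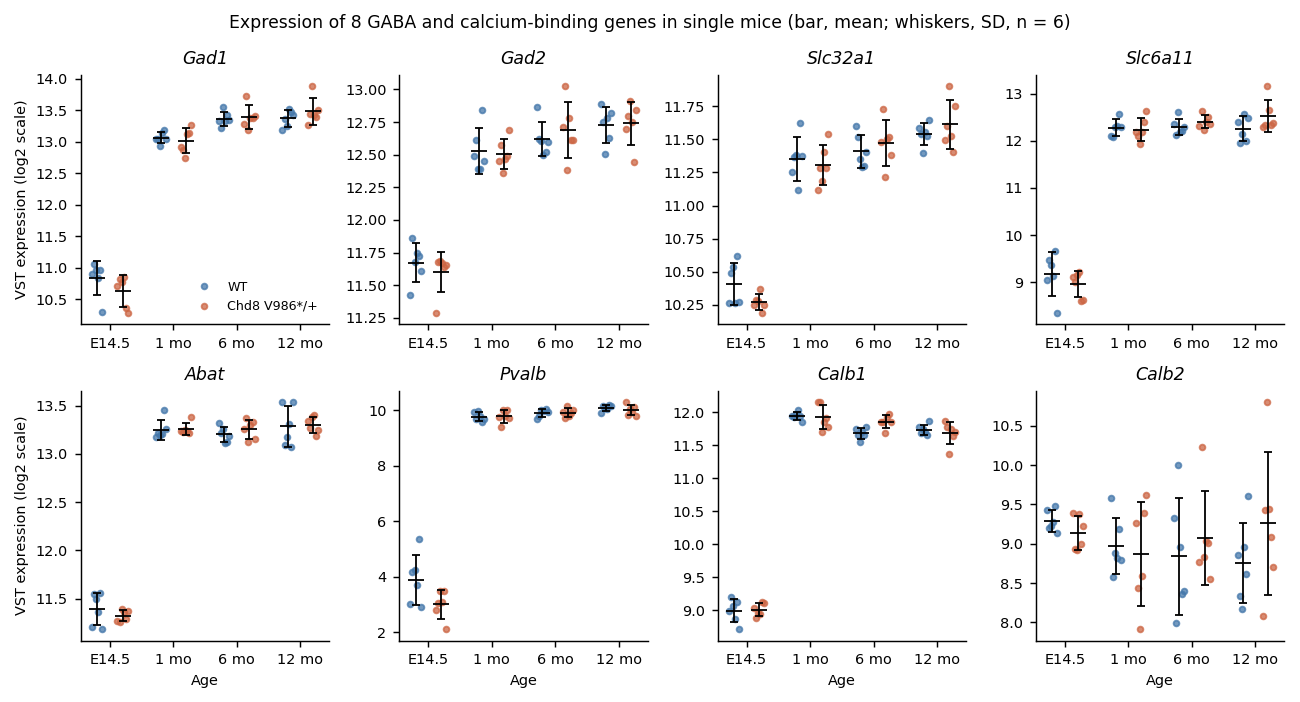
VST expression (log2 scale) of each of the 8 genes by age, with 1 point for each mouse, WT in blue and heterozygous in orange, and the mean and SD of 6 mice in black. Vertical axes differ between panels. The large step between E14.5 and 1 month is seen in 7 panels, Pvalb in the embryos ranged from 2.11 to 5.35, and Calb2 spread over 7.91 to 10.80 from 1 month on.

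Other genes of GABA metabolism mostly rose as well. Of 17 genes for GABA uptake, degradation and the glutamine and glutamate supply, 13 rose and 4 fell in WT and 12 rose and 4 fell in heterozygous cortex. In WT the largest changes were those of the glutaminase gene Gls2 (4.11), the glutamine synthetase gene Glul (3.44), the aspartate aminotransferase gene Got1 (2.60) and the pyridoxal kinase gene Pdxk (2.43), and the same 4 were largest in heterozygous cortex (4.26, 3.50, 2.65 and 2.91). Of 22 interneuron class genes tested, 19 rose and 2 fell in WT, and 18 rose and 2 fell in heterozygous cortex. Their largest changes in WT were in Vip (6.61), Lamp5 (6.31), Cplx3 (5.91) and Cck (5.74), of which Vip and Cck encode neuropeptides. Of 19 other genes for EF-hand calcium-binding proteins, 18 rose and Scgn fell in both genotypes, with increases of up to 7.31 for S100b, 6.18 for Hpcal4, 5.15 for Vsnl1 and 4.64 for Hpca in WT.

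Transcription factor genes of the ganglionic eminences and of interneuron development moved the other way. Of 22, 3 rose and 19 fell in each genotype. The largest decreases in WT were those of Nkx2-1 (−5.49), Isl1 (−4.56), Ebf1 (−3.98) and Lhx8 (−3.95). Astrocyte markers moved with Slc6a11, as 11 of 12 rose and 1 fell in each genotype, with a median of 2.84 in WT and 2.79 in heterozygous cortex. The part of the astrocyte markers in the Slc6a11 increase was not tested.

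**Figure D2:**
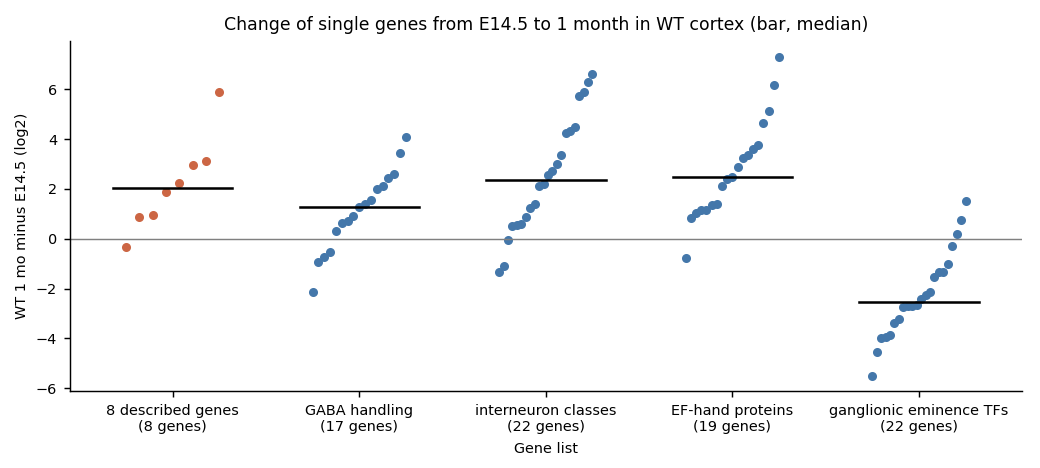
Difference between 1 month and E14.5 in WT cortex (log2 scale) for the 8 described genes and for 4 lists of other genes, with 1 point for each gene tested and a bar at the median. The medians were 2.04 for the 8 genes, 1.26 for GABA handling, 2.38 for interneuron classes, 2.48 for EF-hand proteins and −2.54 for transcription factors (TFs) of the ganglionic eminences.

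From 1 to 6 months the changes were small. In WT, Gad1 increased and Calb1 decreased, beside 12.3% of 17255 genes that rose and 12.3% that fell. Gad1 ranged from 12.94 to 13.19 at 1 month and from 13.22 to 13.55 at 6 months, without overlap, and rose by 0.30 (SE 0.05, adjusted p = 0.00087). Calb1 ranged from 11.85 to 12.04 at 1 month and from 11.54 to 11.78 at 6 months, also without overlap, and fell by 0.27 (SE 0.04, adjusted p = 0.00037). The share of all genes without overlap over this step was not counted either. In heterozygous cortex, where 14% of 17207 genes rose and 12.8% fell, Gad1 increased by 0.38 (SE 0.09, adjusted p = 0.007) and was the only one of the 8 called. Pvalb in WT (0.14, SE 0.07, adjusted p = 0.21) passed without WT 6 month replicate 1 (0.18, adjusted p = 0.089), beside 11.3% of all genes that rose. The Calb1 difference in heterozygous cortex was −0.07 (SE 0.07, adjusted p = 0.54), with a range of 11.71 to 12.15 at 1 month and 11.68 to 11.98 at 6 months.

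Gad2 and Slc32a1 had differences of 0.18 (SE 0.08, adjusted p = 0.12) and 0.17 (SE 0.08, adjusted p = 0.14) over the same step in heterozygous cortex. Without heterozygous 1 month replicate 6 they passed the threshold (0.22, adjusted p = 0.078, and 0.22, adjusted p = 0.056), as did Slc6a11 (0.25, adjusted p = 0.033), so that 4 of the 8 genes rose in place of 1, beside 12% of all genes that rose in that fit. Without heterozygous 6 month replicate 3, Gad2 (0.25, adjusted p = 0.026) and Slc32a1 (0.22, adjusted p = 0.042) passed as well, beside 13.1% of all genes that rose. Of the interneuron class genes, 2 rose and 6 fell in WT, led by Syt2 (0.46), Cort (−0.46), Crh (−0.44) and Npy (−0.40), and 7 rose and 4 fell in heterozygous cortex, led by Cplx3 (−0.46), Crh (−0.41), Syt2 (0.39) and Nos1 (0.27). Syt2 encodes a synaptotagmin of fast-spiking interneurons, and Cort, Crh and Npy encode neuropeptides. Of the 22 transcription factors, 1 rose and 1 fell in each genotype. Of the 19 EF-hand genes, 2 rose and 4 fell in WT and 2 rose and 2 fell in heterozygous cortex. Of the 17 GABA handling genes, 5 rose and 1 fell in WT, and 4 rose and none fell in heterozygous cortex.

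From 6 to 12 months none of the 8 genes was called by limma in either genotype, beside 0.00579% of 17283 genes in WT and 3.43% of 17254 genes in heterozygous cortex. In WT, 2 of the 8 had an unadjusted p below 0.05, beside 6.75% of all genes. These were Pvalb (0.17, SE 0.07, adjusted p = 0.72) and Slc32a1 (0.13, SE 0.06, adjusted p = 0.72). In heterozygous cortex 1 of the 8, Calb1, did (−0.17, SE 0.07, adjusted p = 0.22), beside 15.9%. In one fit of all 48 samples none of the 8 was called over this step either.

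The order of the ages within WT was the same for Gad1, Gad2, Slc32a1 and Pvalb in having its lowest mean at E14.5. In order of age, the Gad1 means were 10.84 ± 0.28, 13.07 ± 0.09, 13.37 ± 0.11 and 13.37 ± 0.13 (SD, n = 6), and the last 2 ages did not differ beyond their spread. Gad2 means were 11.67 ± 0.15, 12.53 ± 0.17, 12.62 ± 0.13 and 12.73 ± 0.14 at the 4 ages in that order, and the 3 ages after birth did not differ between neighbours by the test. Slc32a1 means were 10.41 ± 0.16, 11.35 ± 0.17, 11.41 ± 0.12 and 11.54 ± 0.08. Those of Pvalb were 3.90 ± 0.90, 9.77 ± 0.15, 9.91 ± 0.14 and 10.09 ± 0.10, again with no call between neighbouring ages after birth. Slc6a11 (9.17 ± 0.46, 12.27 ± 0.18, 12.30 ± 0.17 and 12.25 ± 0.27) and Abat (11.39 ± 0.17, 13.25 ± 0.10, 13.20 ± 0.08 and 13.29 ± 0.21) were also lowest at E14.5, and their later ages did not differ beyond the spread.

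Calb1 was highest at 1 month, with means of 8.99 ± 0.18, 11.95 ± 0.06, 11.68 ± 0.08 and 11.74 ± 0.08 (SD, n = 6), and the ages of 6 and 12 months did not differ beyond their spread. Calb2 had its highest mean at E14.5 and large spreads later, with 9.29 ± 0.13, 8.98 ± 0.36, 8.84 ± 0.74 and 8.76 ± 0.51. The SD of Calb2 in heterozygous cortex was 0.22, 0.66, 0.60 and 0.91 at the 4 ages, so Calb2 was the most variable of the 8 genes in both genotypes from 1 month on.

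The comparison of genotypes asked whether loss of 1 Chd8 copy changes these genes at each age. None of the 8 was called by limma at any of the 4 ages. In one fit of all 48 samples 1 of the 8 was called at E14.5, as given below, and none at the later ages. Over all genes tested the share called was 0.00593%, 0.139%, 0.0927% and 0.0463% in order of age, so few genes passed by this method. The study itself, with DESeq2 and a batch correction, reports many more genes over its 4 ages together at the same threshold. At an unadjusted limma p below 0.05, 1 of the 8 was found at E14.5 and 1 at 6 months, beside 4.56% and 7.59% of all genes, and 0 at 1 month and 12 months, beside 8.8% and 11.6%. Exact two-sided permutation tests of 32 combinations of gene and age gave 2 unadjusted p below 0.05, for Pvalb at E14.5 and Calb1 at 6 months, the combinations found by limma, where the smallest p that 6 against 6 mice allow is 0.0022.

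At E14.5, 7 of the 8 genes had a lower mean in heterozygous cortex, with Calb1 as the exception (0.02, SE 0.08). The median difference was −0.14, where that of all genes tested was 0.001. The genes were measured in the same mice, so these are not separate results. Pvalb in WT was 3.02, 4.16, 4.23, 3.71, 5.35 and 2.92 in replicates 1 to 6, and 2.79, 3.07, 3.49, 3.09, 3.47 and 2.11 in heterozygous cortex. The groups overlapped. Each heterozygous mouse lay below the WT median of 3.93, and the same was so for Gad1, Gad2, Slc32a1, Slc6a11 and Abat, so this did not set Pvalb apart. The Pvalb difference was −0.89 (SE 0.37, 95% interval −1.69 to −0.10, p = 0.03, adjusted p = 0.98, exact permutation p = 0.0498), and it was −0.68 in replicates 1 to 3 and −1.10 in replicates 4 to 6. It passed the threshold in one fit of all 48 samples (adjusted p = 0.048), beside 0.711% of all genes. That fit uses 1 variance for all ages. The SD of Pvalb was 0.90 in WT and 0.51 in heterozygous embryos, and 0.10 to 0.23 from 1 month on, so the fit understates its spread at E14.5. The Pvalb difference was −0.60 (SE 0.30, adjusted p = 1.0) without WT replicate 5 and −1.09 (SE 0.36, adjusted p = 0.24) without WT replicate 6. The other differences were −0.21 for Slc6a11 (SE 0.19), −0.20 for Gad1 (SE 0.13), −0.15 for Calb2 (SE 0.10), −0.14 for Slc32a1 (SE 0.07), −0.07 for Gad2 (SE 0.08) and −0.07 for Abat (SE 0.07), with an adjusted p of 0.98 for each. Some of these also depended on 1 WT mouse. The Slc6a11 difference was −0.38 (SE 0.14, adjusted p = 0.28) without WT replicate 6 and −0.12 (SE 0.18, adjusted p = 1.0) without WT replicate 5. For Gad1 it was −0.31 (SE 0.10, adjusted p = 0.25) without WT replicate 6, and for Slc32a1 it was −0.095 (SE 0.06, adjusted p = 1.0) without WT replicate 5.

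Markers of midbrain, hindbrain and spinal cord moved with Pvalb in the embryos. All 31 of the 31 such markers tested had a lower mean in heterozygous cortex, with a median difference of −1.07 where that of all genes tested was 0.001, and none was called. A marker was tested if its mean over the embryos of both genotypes lay at least 0.5 above the floor. Of the 35 markers, 2 in WT and 13 in heterozygous cortex lay closer to it, so some passed only through WT, where they were higher. The 31 of 31 and the median are thus in part set by the filter and do not show a difference. The mean over the 35 markers ranged from 3.96 to 7.43 in WT mice and from 3.97 to 5.24 in heterozygous mice, and WT replicate 5, with the highest Pvalb, was also the highest here. Deviations from the group means of Pvalb and of the mean of the 31 markers tested correlated across the 12 embryos (r = 0.88, permutation p = 0.0015, adjusted p = 0.03, Spearman rho = 0.86, permutation p = 0.0017, adjusted p = 0.053, adjusted over 96 relations with 12 lists), with r = 0.71 without the 2 mice farthest from the median. The r within the genotypes was 0.991 in WT and 0.445 in heterozygous mice. Abat followed the same markers (r = 0.93, permutation p = 6e-05, adjusted p = 0.0029, rho = 0.94, permutation p = 0.0001, adjusted p = 0.0058, and r = 0.91 without the 2 farthest). Among the 8 genes, r with these markers was lowest for Calb2 (0.13). The part of these markers in the Pvalb difference was not tested.

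Other lists also had different means in the embryos of the genotypes, with none of their genes called. Of the 17 GABA handling genes 14 had a lower mean in heterozygous cortex, with a median difference of −0.05. So had 15 of 22 interneuron class genes (median −0.12) and 14 of 17 EF-hand genes tested (median −0.08). Of the 12 excitatory cortical neuron markers 10 had a higher mean in heterozygous cortex, with a median difference of 0.34, and their mean ranged from 10.37 to 11.02 in WT and from 10.83 to 11.33 in heterozygous mice. Of the 22 ganglionic eminence and interneuron transcription factors 17 were higher, with a median of 0.14 and means of 9.61 to 10.10 in WT and 9.72 to 10.04 in heterozygous mice. The 6 general neuronal markers were all lower, with a median of −0.07 and means of 12.84 to 13.26 in WT and 12.90 to 13.22 in heterozygous mice. The groups overlapped for each of these lists, and no gene of them lay near the floor apart from 2 of the 19 EF-hand genes. The part of these lists in the differences of the 8 genes was not tested.

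At 1 month the differences between genotypes lay between −0.11 (Calb2, SE 0.24) and 0.01 (Pvalb, SE 0.09), with adjusted p from 0.89 to 0.99. The 95% intervals for Gad1 (−0.20 to 0.10), Gad2 (−0.18 to 0.12), Slc32a1 (−0.21 to 0.11) and Abat (−0.09 to 0.11) were narrow, whereas that of Calb2 ran from −0.61 to 0.40. At 6 months all 8 means were higher in heterozygous cortex, with a median difference of 0.07 where that of all genes tested was −0.0009. The genes were measured in the same mice and in part vary together, so these are not 8 separate results. The sign for Gad1, Pvalb and Calb2 changed when 1 mouse was left out. Calb1 in WT was 11.75, 11.65, 11.54, 11.70, 11.65 and 11.78 in replicates 1 to 6, and 11.85, 11.86, 11.68, 11.93, 11.98 and 11.85 in heterozygous cortex, so 5 of 6 heterozygous mice lay above every WT mouse. The difference was 0.18 (SE 0.05, 95% interval 0.07 to 0.28, p = 0.0025, adjusted p = 0.38, exact permutation p = 0.013), with 0.15 in replicates 1 to 3 and 0.21 in replicates 4 to 6. It did not pass the adjustment over all genes. The other 7 differences lay between 0.01 (Pvalb) and 0.23 (Calb2). Astrocyte markers stood beside these, as 12 of 12 had a higher mean in heterozygous cortex at 6 months, with a median difference of 0.12 and none called, and their part was not tested.

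At 12 months Calb2 had the largest difference of the 8, 0.50 (SE 0.33, adjusted p = 0.56, exact permutation p = 0.281). Its values were 8.86, 8.33, 8.17, 8.95, 8.61 and 9.61 in WT replicates 1 to 6 and 8.09, 9.44, 10.80, 9.44, 9.08 and 8.71 in heterozygous cortex. The groups overlapped over most of their range, and without heterozygous replicate 3 the difference was 0.20 (SE 0.25, adjusted p = 0.81). The same mouse had the highest Slc6a11 of all 48 samples (13.16), the highest Gad1 (13.89) and the highest Slc32a1 (11.90), together with the lowest Calb1 of the group (11.37). The Slc6a11 difference was 0.27 (SE 0.14, adjusted p = 0.47) and was 0.14 (SE 0.11, adjusted p = 0.66) without that mouse, and the Gad1 difference went from 0.11 (SE 0.09) to 0.03 (SE 0.07). The remaining 5 differences lay between −0.08 (Pvalb) and 0.07 (Slc32a1).

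**Figure D3:**
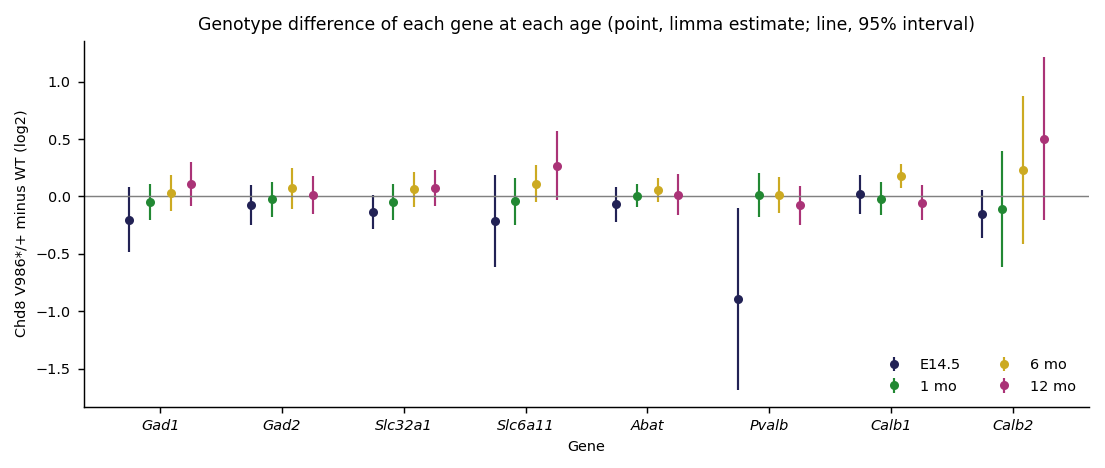
Heterozygous minus WT difference (log2 scale) of each gene in each of the 4 age groups, as the limma estimate with its 95% interval. The interval excludes 0 for Pvalb at E14.5 (−1.69 to −0.10) and for Calb1 at 6 months (0.07 to 0.28), though neither passed the adjustment over all genes, and the intervals are wide for Calb2 from 1 month on.

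Other genes around GABA signaling gave 1 call between genotypes. None of the 17 GABA handling genes, the 22 transcription factors or the EF-hand genes was called at any age, and of 22 interneuron class genes Cort, which encodes the neuropeptide cortistatin, was lower in heterozygous cortex at 12 months (−0.54, SE 0.09, adjusted p = 0.075), beside 0.0463% of all genes called. At an unadjusted limma p below 0.05, 9 of these 22 genes were found at 12 months, beside 11.6% of all genes. Of the 22, 10 had a higher and 12 a lower mean at that age. At E14.5, 1 month and 6 months it was 3, 1 and 3 of the 22, beside 4.56%, 8.8% and 7.59%. In the GABA handling list, the lowest unadjusted p at E14.5 was that of Pdxk (−0.42, SE 0.14, adjusted p = 0.98). At 6 and 12 months it was that of the glutamine transporter gene Slc38a3 (0.14, SE 0.05, adjusted p = 0.56, and 0.24, SE 0.10, adjusted p = 0.36). Among the interneuron class genes at E14.5, Vip (−0.51, SE 0.21) and Crhbp (−0.65, SE 0.28) had the lowest p, with an adjusted p of 0.98 for both.

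Whether the course with age differed between genotypes was tested as a difference of age steps in one limma fit of all 48 samples, for 4 steps. In that fit, without the replicate number as a term, none of the 8 genes was called in any of them, beside 0% of all genes for E14.5 to 1 month and for 1 to 6 months, 0.0579% for 6 to 12 months and 0.0809% for E14.5 to 12 months. At an unadjusted p below 0.05 there were 1, 0, 1 and 3 of the 8 in these steps, beside 4.67%, 3.38%, 8.71% and 11.6% of all genes. Pvalb had the lowest p for E14.5 to 1 month, where its increase was 0.90 larger in heterozygous cortex (SE 0.30, adjusted p = 1), and for E14.5 to 12 months, where it was 0.82 larger (SE 0.30, adjusted p = 0.28). From E14.5 to 12 months, the unadjusted p was also below 0.05 for Slc6a11 (0.48 larger, SE 0.21, adjusted p = 0.37) and Gad1 (0.32 larger, SE 0.15, adjusted p = 0.41), beside 11.6% of all genes. Without WT E14.5 replicate 6, which had the lowest Gad1 and Slc6a11 of its group, 3 of the 8 genes were called for this step, Pvalb (1.01, adjusted p = 0.047), Slc6a11 (0.65, adjusted p = 0.06) and Gad1 (0.42, adjusted p = 0.089), beside 4.18% of all genes in that fit. Pvalb was then also called for E14.5 to 1 month (1.10, adjusted p = 0.073), beside 0.73% of all genes. For Calb1, which fell from 1 to 6 months in WT and was not called in heterozygous cortex, the difference of the steps was 0.20 (SE 0.10, adjusted p = 1). From 6 to 12 months it was −0.23 (SE 0.10, adjusted p = 0.51). The one fit shares its variance between ages, although the median SD of a gene within a group ranged from 0.12 to 0.18. For Pvalb the SD was 0.90 in WT and 0.51 in heterozygous embryos, and 0.10 to 0.23 in the groups from 1 month on. Its SE of 0.30 in the steps lay below the SE of 0.37 of its E14.5 difference fitted apart. That SE of 0.30 is thus too small for steps that start at E14.5. Calls for the step from E14.5 to 12 months, those without WT E14.5 replicate 6 included, can therefore exceed the rate that the threshold allows. The Pvalb call for E14.5 to 1 month has the same limit.

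The 8 genes also varied between mice of one group, and they did so together in part. From 1 month on, deviations from the group means were compared over 36 mice for 28 pairs of genes. By Pearson correlation with 100000 permutations within groups, 17 pairs had an adjusted p below 0.05, of which 14 were positive and 3 negative. Each negative pair held Pvalb. The points share a library for both genes of a pair, and a difference between replicates 1 to 3 and 4 to 6 had been removed from the values by the authors.

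Gad2 and Slc32a1 were the closest pair (r = 0.85, permutation p = 1e-05, adjusted p = 7e-05, rho = 0.80, permutation p = 1e-05, adjusted p = 0.00019), where 1e-05 is the smallest p that the permutations can give. The r was 0.81 without the 2 mice farthest from the median, and between 0.77 and 0.95 within each of the 6 groups. Gad2 also moved with Abat (r = 0.69, adjusted permutation p = 7e-05, rho = 0.68, adjusted permutation p = 0.00021), positively in 6 of 6 groups. Gad2 moved against Pvalb (r = −0.64, permutation p = 6e-05, adjusted p = 0.00021, rho = −0.68, permutation p = 2e-05, adjusted p = 0.00019), with an r from −0.95 to −0.43 within the groups and −0.59 without the 2 farthest. Slc32a1 and Pvalb gave r = −0.51 (adjusted permutation p = 0.01, rho = −0.58, adjusted permutation p = 0.0041). The other glutamate decarboxylase gene, Gad1, had r = −0.14 with Pvalb (adjusted permutation p = 0.53).

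A set of Gad1, Slc6a11 and Calb2 also moved together. Slc6a11 and Calb2 had r = 0.77 (permutation p = 1e-05, adjusted p = 7e-05, rho = 0.68, permutation p = 2e-05, adjusted p = 0.00019, r = 0.68 without the 2 farthest), Gad1 and Calb2 had r = 0.72 (adjusted permutation p = 0.0002, rho = 0.53, adjusted permutation p = 0.0094), and Gad1 and Slc6a11 had r = 0.72 (adjusted permutation p = 0.00017, rho = 0.56, adjusted permutation p = 0.0041). For Gad1 and Calb2, r was 0.85 in replicates 1 to 3 and 0.45 in replicates 4 to 6. Calb1 was in none of the 17 pairs. At E14.5, over 12 mice, 1 of the 28 pairs passed, Gad1 and Slc6a11 (r = 0.92, permutation p = 0.0013, adjusted p = 0.038, rho = 0.83, permutation p = 0.0022, adjusted p = 0.061, and r = 0.79 without the 2 farthest). Gad2 and Slc32a1 had r = 0.39 there, and Pvalb and Gad2 had r = 0.43. The mean of the 6 general neuronal markers moved with Gad1 in the embryos (r = 0.92, permutation p = 5e-05, adjusted p = 0.0029, rho = 0.90, permutation p = 0.00012, adjusted p = 0.0058, r = 0.87 without the 2 farthest) and with Slc6a11 (r = 0.87, adjusted permutation p = 0.03, rho = 0.79, adjusted permutation p = 0.091), and their part in the relation of Gad1 and Slc6a11 was not tested.

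**Figure D4:**
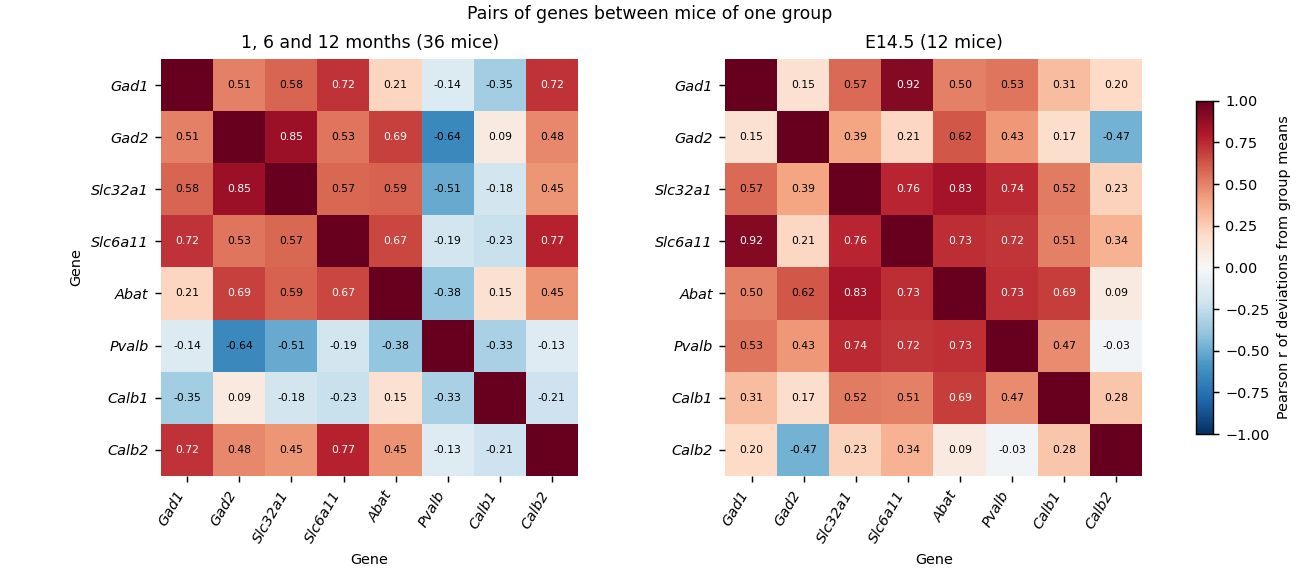
Pearson r between deviations from group means for each pair of the 8 genes, on the left over 36 mice of 1, 6 and 12 months and on the right over 12 mice of E14.5, with red for positive and blue for negative values. On the left, Gad2 and Slc32a1 stand out with 0.85 and the row of Pvalb is blue throughout, with its lowest value of −0.64 for Gad2, and on the right most values are positive.

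The lists of other genes separated the members further. Over the 36 mice, the mean of the 22 ganglionic eminence and interneuron transcription factors followed Gad2 (r = 0.86, permutation p = 1e-05, adjusted p = 0.00019, rho = 0.82, adjusted permutation p = 0.00024) and Slc32a1 (r = 0.79, permutation p = 1e-05, adjusted p = 0.00019, rho = 0.72, adjusted permutation p = 0.00024), and moved against Pvalb (r = −0.54, permutation p = 0.0016, adjusted p = 0.0074, rho = −0.56, adjusted permutation p = 0.0087). The mean of 15 striatal markers likewise moved against Pvalb (r = −0.52, adjusted permutation p = 0.0098, rho = −0.54, adjusted permutation p = 0.013) and with Gad2 (r = 0.46, adjusted permutation p = 0.025, rho = 0.39, adjusted permutation p = 0.079). Abat had its strongest relations with excitatory neuron markers (r = −0.83, permutation p = 1e-05, adjusted p = 0.00019, rho = −0.78, adjusted permutation p = 0.00024) and astrocyte markers (r = 0.73, permutation p = 6e-05, adjusted p = 0.00064, rho = 0.64, adjusted permutation p = 0.0059). Slc6a11 also followed the astrocyte markers (r = 0.65, permutation p = 0.0001, adjusted p = 0.00087, rho = 0.64, adjusted permutation p = 0.0054).

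The genes whose deviations were most like each member were found among 16957 genes over the 36 mice, with r as the measure and no test. For Gad1 they were Inpp5j (0.86), Gng4 (0.85) and Shisa3 (0.84). For Gad2 they were Slc32a1 (0.85), Nrsn2 (0.82) and the homeobox gene Dlx5 (0.80), and for Slc32a1 they were Gad2 (0.85), Tacr1 (0.81) and Nxph4 (0.80). Slc6a11 was nearest to Csdc2 (0.84), Iqck (0.79) and Ptpro (0.79), and Abat to Serpine2 (0.83), Abhd4 (0.83) and Abhd3 (0.83). Pvalb and Calb1 had more distant neighbours, 1110008P14Rik (0.76), B230312C02Rik (0.65) and Eps15 (0.64) for Pvalb, and Alcam (0.66), Rfx3 (0.64) and Plk4 (0.64) for Calb1. At E14.5, over 12 mice and 16877 genes, Pvalb was nearest to Syt2 (0.97), Klhl14 (0.95) and Gm15663 (0.92), and Slc32a1 to Dsc3 (0.94), the glycine transporter gene Slc6a5 (0.93) and C1ql3 (0.93).

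Calb2 was nearest to Eomes (0.93), Doc2g (0.92) and Sp8 (0.92) over the 36 mice. Eomes and Sp8 encode transcription factors found in neurons of the adult olfactory bulb. After this was seen, 6 further genes known from the olfactory bulb (Tbx21, Cdhr1, Th, Pax6, Meis2 and Scgn) were set beside Calb2. As they were chosen from these data, they are a description and no p-value is given. Their list is still 1 of the 12 over which the list p-values were adjusted. Their mean followed Calb2 with r = 0.93 (rho = 0.86), 0.90 without the 2 farthest mice, 0.97 in replicates 1 to 3, 0.79 in replicates 4 to 6 and between 0.86 and 1.00 within each of the 6 groups. Single r values with Calb2 ran from 0.56 for Meis2 to 0.91 for Tbx21. The same mean had r = 0.73 with Gad1, 0.72 with Slc6a11, 0.46 with Gad2 and −0.13 with Pvalb.

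The olfactory bulb genes stood beside the Calb2 differences between genotypes. At 12 months all 6 had a higher mean in heterozygous cortex, with a median difference of 0.96, and their mean over the list ranged from 6.45 to 7.25 in WT and from 6.62 to 9.23 in heterozygous mice, with replicate 3 the highest. Eomes in that mouse was 8.92, where the group mean was 5.74 and the WT mean 3.82. At 6 months the highest Calb2 values were those of heterozygous replicate 2 (10.23) and WT replicate 3 (10.01), and these mice also had the highest Eomes of their groups (7.99 and 7.85). The Calb2 difference at 6 months was 0.46 without that WT mouse and −0.0025 without that heterozygous mouse, in place of 0.23. None of the 6 genes had a group mean within 0.5 of the floor. However, Tbx21 and Scgn were low in WT at 12 months (means of 3.49 and 3.65), and Tbx21 went down to 2.59 in WT at 6 months. The part of the 6 genes in the differences of Calb2, Slc6a11 and Gad1 was not tested.

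**Figure D5:**
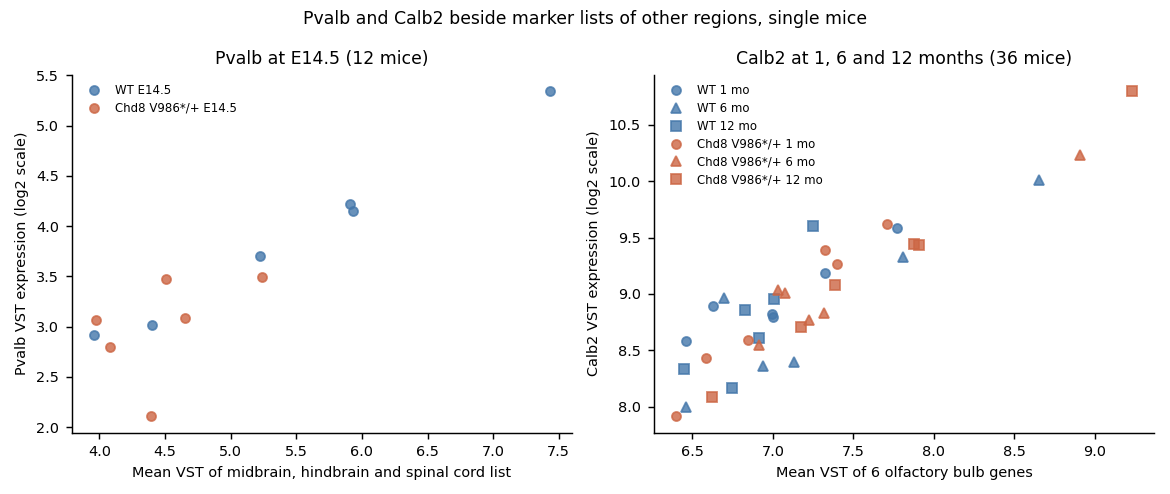
On the left, Pvalb in 12 embryos against the mean VST expression of 35 midbrain, hindbrain and spinal cord markers, and on the right, Calb2 in 36 mice of 1, 6 and 12 months against the mean of 6 olfactory bulb genes, with 1 point for each mouse, WT in blue and heterozygous in orange. The WT embryo with Pvalb at 5.35 lies at the far right with a marker mean of 7.43, and the 12 month heterozygous mouse with Calb2 at 10.80 lies at 9.23.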

How the data were processed

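RNA-seq of dissected cortex from 48 male mice was analysed as deposited. The authors filtered reads with the FASTX toolkit, trimmed adapters with cutadapt, aligned to mm9 with STAR 2.5.2b, quantified transcripts with Salmon 0.11.3 and corrected for batch with DESeq2 (STAR and Salmon versions per the submitters' processing notes). The methods name KAPA for the stranded libraries, whereas the labels name a TruSeq kit. The authors deposited a single table of VST expression, with log2 units, for 24444 genes. It holds no counts, so count models were not used. The study lists the read depth of each sample in a supplement, which was not used here. For every gene the means of replicates 1 to 3 and 4 to 6 differed by at most 3.20e-14. Any difference between these sets had thus been taken out before deposit. This can make the spread between mice look smaller than it was.

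Groups were taken from the labels. As litters are not given, p-values measure the spread between these samples. Each comparison was fitted with limma 3.58.1 in R 4.3.3 with an intensity trend, leaving out genes with a mean less than 0.5 above 2.1433, the floor, and adjusted by the Benjamini-Hochberg method over all genes tested. An adjusted p below 0.1, the threshold of the study's methods, was called. The unit is the difference of group means, and the 95% intervals are those of limma. Single genes were also compared by exact permutation. Correlations used deviations from group means, with 100000 permutations within groups and adjustment over 28 pairs, or over 96 relations with lists, in each set of mice. The 96 relations include those of the olfactory bulb list. All 8 genes are named in each comparison. Of the GABA handling and interneuron class lists up to 4 called genes with the largest change are named, or up to 2 with the lowest p where none was called. The other lists are mostly given as counts. Some genes that this rule names are not reported here. The 3 most similar genes are named for each member. The members and lists were chosen with earlier results of these data known, and the olfactory bulb genes after the genes nearest to Calb2 had been seen. The alternatives tried were a single fit of the 48 samples, the replicate number as a block, other filters on low values, no trend, robust variances, quantile normalization, samples centred on the median gene, the set of replicates as a covariate, a threshold of 0.05, Spearman correlation and leaving out each sample. Coordinates are mm9, and promoter sequences are RefSeq's, found for 5 of the 8 genes. Other tools were scipy 1.17.1 with numpy 2.4.6, and pandas 2.3.3, in Python 3.11.15, with figures from matplotlib 3.10.9.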

Additional observations from a re-analysis of the deposited data

Results flagged for a closer look

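Of the 64 combinations of gene, genotype and age, 6 held a mouse far from the other 5 of its group by Dixon's test at 95%. Chance marks about 1 in 20 groups. The genes share libraries, so the groups are not independent, and whether the count exceeds chance was not tested. Gad1 was low in WT E14.5 replicate 6 (10.30, the others 10.84 to 11.07), the mouse without which 3 of the 8 genes passed the threshold for a difference between genotypes in the step from E14.5 to 12 months. Gad2 was low in heterozygous E14.5 replicate 1 (11.29, the others 11.64 to 11.69) and high in WT 6 month replicate 1 (12.86, the others 12.50 to 12.62). Abat was high in WT 1 month replicate 5 (13.46, the others 13.17 to 13.25) and in heterozygous 1 month replicate 6 (13.38, the others 13.21 to 13.25). Calb2 was high in heterozygous 6 month replicate 2 (10.23, the others 8.55 to 9.03). None of these mice was left out of the values reported above.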

How the results depend on the processing

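The number of the 8 genes called was recomputed for 10 comparisons of age or genotype and 4 differences of steps. Over 120 planned fits other than leaving out a sample, 117 gave a count within 1.5 times the one reported. The exceptions were E14.5 between genotypes in one fit of all 48 samples (1 called, Pvalb, in place of 0), 1 to 6 months in heterozygous cortex with the replicate block (3 called, with Gad2 and Slc32a1, in place of 1), and the difference of the step from E14.5 to 12 months with the replicate block (1 called, Pvalb, adjusted p = 0.042, in place of 0). The cause was not tested. Same-numbered mice of the genotypes had a mean correlation of 0.232 at E14.5, where 4 of 6 pairs were over 0.1 and 4 of 6 mice correlated best with their own number, and of 0.018, 0.045 and −0.034 at the later ages, so not every pair was over 0.1 at any age and the numbers were not taken to pair the samples. Leaving out each sample in turn, the counts ranged from 1 to 4 for 1 to 6 months in heterozygous cortex, from 0 to 1 for the difference of the step from E14.5 to 1 month and from 0 to 3 for that from E14.5 to 12 months. With Spearman correlation no pair passed at E14.5 in place of 1. Quantile normalization turned the Abat difference from 1 to 6 months in heterozygous cortex to 0.0068. Small differences of genes that were not called changed sign when 1 mouse was left out. For heterozygous against WT at E14.5, the range was Calb1 −0.039 to 0.058. For heterozygous against WT at 1 month, the range was Gad1 −0.10 to 0.0036, Gad2 −0.064 to 0.037, Slc32a1 −0.097 to 0.0044, Slc6a11 −0.12 to 0.018, Abat −0.017 to 0.049, Pvalb −0.035 to 0.089, Calb1 −0.065 to 0.024 and Calb2 −0.26 to 0.084. For heterozygous against WT at 6 months, the range was Gad1 −0.0404 to 0.068, Pvalb −0.037 to 0.052 and Calb2 −0.0025 to 0.46. For heterozygous against WT at 12 months, the range was Gad2 −0.035 to 0.069, Abat −0.028 to 0.067 and Calb1 −0.089 to 0.0091. For WT 6 months against 1 month, the range was Slc6a11 −0.04 to 0.082 and Calb2 −0.37 to 0.034. For WT 12 months against 6 months, the range was Gad1 −0.027 to 0.041, Slc6a11 −0.10 to 0.021 and Calb2 −0.26 to 0.15. For heterozygous 6 months against 1 month, the range was Abat −0.026 to 0.023 and Calb2 −0.031 to 0.35. For heterozygous 12 months against 6 months, the range was Gad2 −0.0104 to 0.12, Slc6a11 −0.0103 to 0.17 and Calb2 −0.12 to 0.42. The calls of the 7 genes that rose from E14.5 to 1 month held in every fit run in both genotypes. Over all genes, the number called between genotypes was 1, 24, 16 and 8 at the 4 ages, and ranged over the planned fits from 0 to 120, 13 to 37, 4 to 30 and 2 to 520, with the highest at E14.5, 1 month and 12 months in one fit of all 48 samples. Leaving out 1 mouse gave 0 to 2, 3 to 32, 5 to 21 and 2 to 251. For 6 to 12 months it was 592 in heterozygous cortex (101 to 654 over the planned fits, 209 to 814 leaving out 1 mouse) and 1 in WT (0 to 7 and 0 to 2). For the differences of steps it was 0, 0, 10 and 14, and up to 2, 0, 29 and 261 over the planned fits, and leaving out 1 mouse gave 0 to 126, 0 to 1, 3 to 143 and 0 to 724. The 126 and the 724 came from leaving out WT E14.5 replicate 6, and the 143 from leaving out WT 12 month replicate 3. The relation of Slc32a1 and Calb2 after birth did not pass by Spearman correlation (rho = 0.33, adjusted permutation p = 0.11). Depth was not used, the table holds no counts, and Pvalb in embryos, near the floor, is the value least well measured. The one variance of the fit of all 48 samples is a limit for the differences of steps and for the Pvalb call between genotypes at E14.5. It is a limit most of all for the step from E14.5 to 12 months, where more calls than the threshold allows can be false.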
